A study of Mus musculus with 6 samples.

Results

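Hemidesmosomes are the junctions that rivet the basal keratinocytes of the epidermis to the basement membrane below them. Their core was taken here as 6 of the 21368 genes named on the arrays, Col17a1, Itga6, Itgb4, Plec, Dst and Cd151. They were chosen as components of this junction, with earlier results of these data known. On the arrays they were read by 10 of the 55681 non-control probes, matched through the RefSeq accession of each probe. Dst had 4 probes, Cd151 had 2, and the other genes had 1 each. The arrays held RNA of tail epidermis, freed from the dermis with EDTA, from wild-type C57BL/6 mice. The young group held 3 samples, taken at 8 weeks of age. The aged group also held 3, of which replicate 1 was taken at 22 months and replicates 2 and 3 at 25 months. No mutation or treatment separates the groups, sex is not labelled, and it is not said whether a sample is 1 animal or a pool, so each p-value reflects sample-to-sample spread that may be technical.

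At the membrane, integrin α6β4 (Itga6 and Itgb4) binds laminin-332 of the basement membrane, collagen XVII (Col17a1) spans the membrane and reaches into the matrix, and the tetraspanin CD151 associates with the integrin. On the inner side plectin (Plec) and BP230, the epithelial product of the dystonin gene (Dst), couple the receptors to the keratin 5 and keratin 14 filaments. Loss of these proteins causes skin blistering, and collagen XVII is also known for its part in keeping epidermal and hair follicle stem cells in place. The comparison of the 2 ages asks whether the transcripts of this junction differ in aged tail epidermis.

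Start-site sequences could be printed for Col17a1 and Dst, the a member that is itself a collagen of the junction and a gene whose probes differed from each other below. RefSeq (GRCm38.p6) gave 300 bases around each start, 250 before it and 50 after it, for 1 start of Col17a1, 2 of Dst and 2 of Cd151. In the sequences below, capitals mark matches on either strand to a TATA box (TATAAA) or a GC box (GGGCGG); AP-1 (TGANTCA) was also searched and had 0 matches in them, and E-box matches (CANNTG) were counted and left in lower case. Of 32851 promoters of the same length, 13.6% hold TATAAA, 35.7% hold GGGCGG 7.81% hold TGANTCA and 72.3% hold CANNTG.
Col17a1, chr19:47691993-47692292, minus strand: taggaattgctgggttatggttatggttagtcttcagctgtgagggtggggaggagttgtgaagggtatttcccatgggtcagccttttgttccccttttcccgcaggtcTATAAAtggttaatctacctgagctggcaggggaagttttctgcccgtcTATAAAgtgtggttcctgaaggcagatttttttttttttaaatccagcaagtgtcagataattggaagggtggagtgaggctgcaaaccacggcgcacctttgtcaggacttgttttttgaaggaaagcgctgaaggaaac
Dst, upstream start, chr1:34011345-34011644, plus strand: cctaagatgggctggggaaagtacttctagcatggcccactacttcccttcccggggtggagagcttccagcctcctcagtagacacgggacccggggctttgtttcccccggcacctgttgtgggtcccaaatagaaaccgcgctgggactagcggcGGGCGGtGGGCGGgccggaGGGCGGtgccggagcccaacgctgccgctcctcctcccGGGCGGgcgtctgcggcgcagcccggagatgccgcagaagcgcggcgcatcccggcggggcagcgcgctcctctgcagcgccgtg
Dst, downstream start, chr1:34160010-34160309, plus strand: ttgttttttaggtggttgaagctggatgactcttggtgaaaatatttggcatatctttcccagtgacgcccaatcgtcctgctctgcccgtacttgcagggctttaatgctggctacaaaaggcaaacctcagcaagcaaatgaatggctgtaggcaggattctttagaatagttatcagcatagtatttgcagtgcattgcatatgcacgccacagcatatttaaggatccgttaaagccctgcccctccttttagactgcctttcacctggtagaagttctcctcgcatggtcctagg
The Col17a1 window held 2 matches to the TATA box, 0 to the GC box and 5 CpG dinucleotides. The 2 Dst windows differed: the upstream one held 4 GC box matches and 31 CpG, more CpG than 89.4% of promoters, while the downstream one held 6 CpG and no TATA, GC box or AP-1 match. The table does not say which transcript begins at which Dst start. The matches are descriptions of these letters and were not related to any signal.

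The probes of the integrins, the plakins and collagen XVII had higher means in aged epidermis for the brightest probe of each gene, and none passed the test. Values are log2 of the processed signal relative to the 75th percentile of the array. Differences are aged minus young, fitted with limma across the 29508 probes that 3 or more arrays showed well above background, with a Benjamini-Hochberg threshold of 0.05. Of the 10 member probes 9 entered this test, each well above background on all 6 arrays, and 0 of 9 passed, where 17 of all tested probes did (0.0576%, 8 higher and 9 lower, or 5 and 3 under quantile normalization). That count over all probes was 0 with the replicate number as a block, 1424 without aged replicate 1, and 0 when any other single array was left out. Among the 9 tested probes 3 were higher at an unadjusted p under 0.05 and 0 lower, where all tested probes gave 9.67% and 8.11%. The brightest probe of each gene was higher in aged epidermis in 6 of 6 genes, with a median difference of 0.35, where the median over all tested probes was 0.05 and 56.0% of them were higher. Bright probes as a class leaned the same way. Among the 4311 tested probes at least as bright as the brighter Cd151 probe, the dimmest of the 6, 78.1% were higher, with a median of 0.15.

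**Figure D1:**
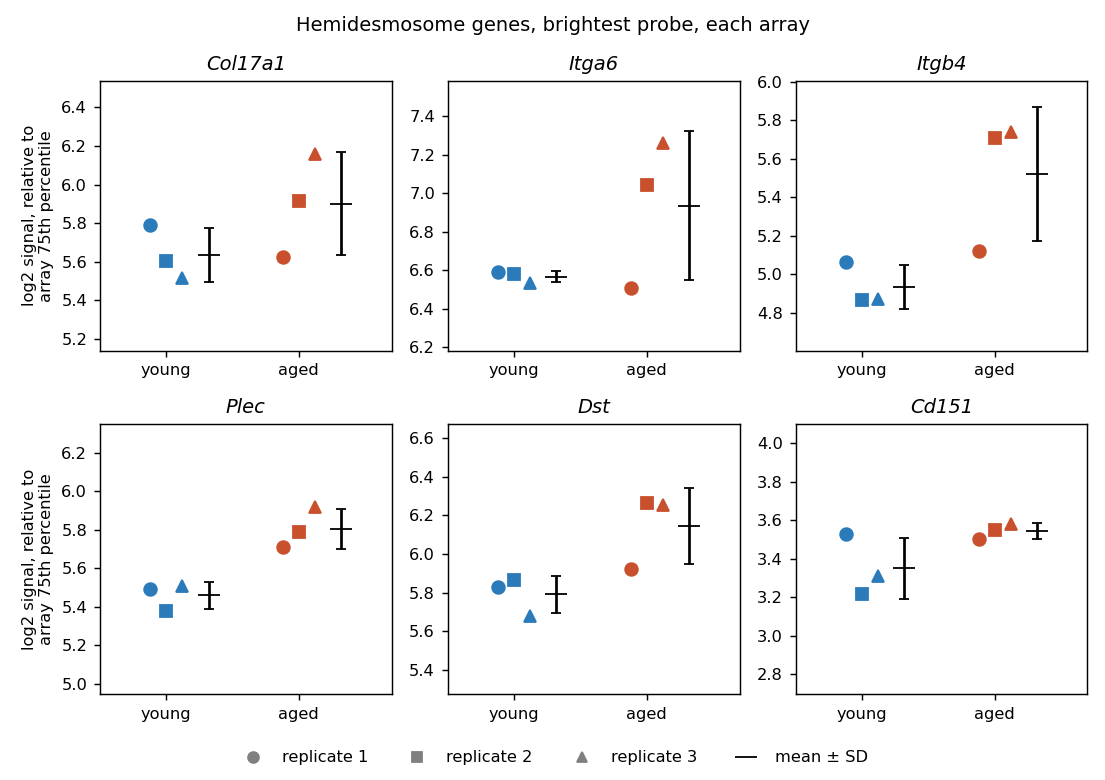
Log2 signal relative to the 75th percentile of the array (y axis, 1.4 units in each panel) for the brightest probe of each gene on 3 young (blue) and 3 aged (orange) arrays. Symbols give the replicate number, and the bar is the mean ± SD. Aged replicate 1 is the lowest aged array in all 6 panels, and the groups are apart for Itgb4, Plec and Dst.

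Col17a1 encodes collagen XVII, the transmembrane collagen of the hemidesmosome. Its signal was 5.79, 5.60 and 5.52 in young replicates 1 to 3 and 5.62, 5.91 and 6.16 in aged replicates 1 to 3. Aged replicate 1 lay inside the young range, and the other aged arrays lay above it. The difference was 0.26 ± 0.17 (SE, n = 3 arrays per group, limma adjusted p = 0.450), with a 95% interval from -0.15 to 0.68, or from 0.901-fold to 1.60-fold. Against the young array of the same number, the aged array differed by -0.16 for replicate 1, 0.31 for replicate 2 and 0.64 for replicate 3. The difference was 0.40 without aged replicate 1 and 0.13 without aged replicate 3.

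Itga6 and Itgb4 encode the chains of the laminin receptor α6β4. Itga6 had signals of 6.59, 6.58 and 6.53 in the young arrays and 6.51, 7.04 and 7.26 in the aged ones. The young arrays lay close together, aged replicate 1 lay just below them and the other aged arrays were above. The difference was 0.37 ± 0.21 (SE, limma adjusted p = 0.389), with a 95% interval from -0.13 to 0.87, and it was 0.58 without aged replicate 1 and 0.21 without aged replicate 3.

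Itgb4, whose long cytoplasmic tail binds plectin, showed the largest difference of the 6 genes. Its signals were 5.07, 4.87 and 4.87 in the young arrays and 5.12, 5.71 and 5.74 in the aged ones. All aged arrays lay above all young ones, although aged replicate 1 was above young replicate 1 by only 0.05. The difference was 0.59 ± 0.20 (SE, 1.50-fold, limma adjusted p = 0.226), with a 95% interval from 0.11 to 1.06, and 95.5% of tested probes had a lower difference. Itgb4 was the 1 member to pass under any alternative, and it did so in 2 of 18. The difference was 0.79 without aged replicate 1 (limma adjusted p = 0.0325) and 0.75 with array weights (adjusted p = 0.0400), which give that array the smallest weight. In these 2 settings 1424 and 1543 of all 29508 tested probes passed, where 17 did in the main fit, so the call is not particular to Itgb4. Over all 18 alternatives its adjusted p ran from 0.0325 to 0.716.

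Plec and Dst encode plakins, the linker proteins that tie the receptors to keratin filaments. Plec had signals of 5.49, 5.38 and 5.51 in the young arrays and 5.71, 5.79 and 5.92 in the aged ones, so that the groups were apart. Its difference was 0.35 ± 0.11 (SE, 1.27-fold, limma adjusted p = 0.224), with a 95% interval from 0.07 to 0.62. Plec was also the member least moved by leaving out an array, from 0.29 without aged replicate 3 to 0.39 without aged replicate 1. The brightest Dst probe, A_51_P489996, read 5.83, 5.86 and 5.68 in the young arrays and 5.92, 6.27 and 6.25 in the aged ones, again without overlap. Its difference was 0.36 ± 0.14 (SE, 1.28-fold, limma adjusted p = 0.268), with a 95% interval from 0.02 to 0.70. With the slide row as a block, the intervals of Itgb4, Plec and this Dst probe all included 0.

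Itgb4, Plec and this Dst probe were thus the 3 of 9 tested member probes whose aged values all lay above the young ones, and 0 lay wholly below. Over all tested probes 16.3% were apart in this way with aged higher and 9.72% with aged lower. Among the 4311 probes of similar or greater brightness the share with aged higher was 33.2%, and 15.7% of them were higher at an unadjusted p under 0.05. Of the 6 brightest member probes it was 3 by either count, and with 6 probes nothing particular to the members is read from these shares.

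**Figure D2:**
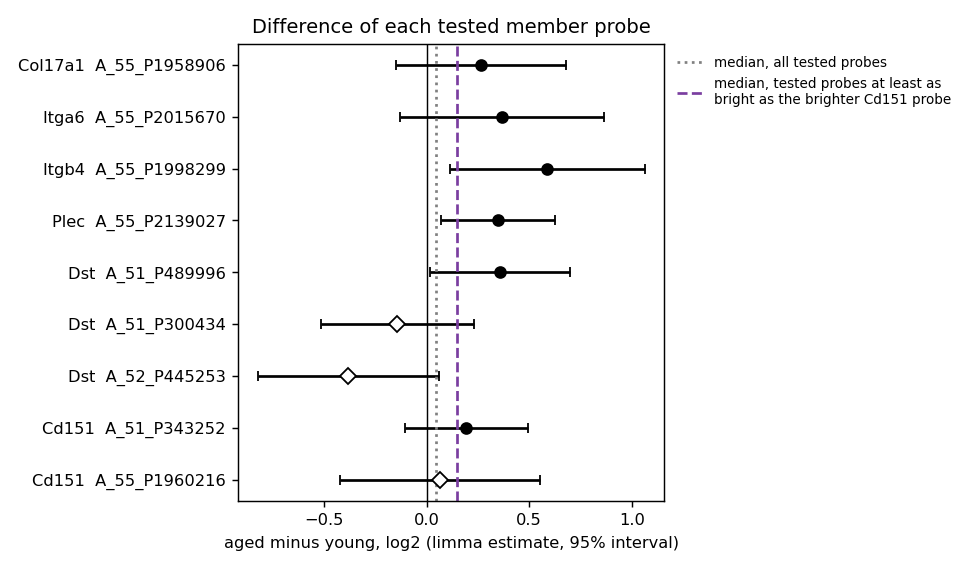
Aged minus young difference (x axis, log2) of the 9 tested member probes with the 95% interval from limma. Filled circles are the brightest probe of a gene and open diamonds are further probes. The dotted line is the median of all tested probes (0.05) and the dashed line that of the 4311 bright ones (0.15). In this main fit, without blocks, the intervals of Itgb4, Plec and the brightest Dst probe lie above 0. With the slide row as a block all 3 include 0.

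Cd151, the tetraspanin that associates with laminin-binding integrins, differed least. Its brighter probe, A_51_P343252, gave 3.53, 3.22 and 3.31 in the young arrays and 3.50, 3.55 and 3.58 in the aged ones. Young replicate 1 lay inside the aged range, so the groups overlapped. The difference was 0.19 ± 0.12 (SE, limma adjusted p = 0.446), with a 95% interval from -0.11 to 0.49. The dimmer probe of the same transcript, A_55_P1960216, gave -0.59, -0.96 and -1.03 in the young arrays and -1.04, -0.47 and -0.90 in the aged ones. Its groups overlapped, and its difference of 0.06 ± 0.20 (limma adjusted p = 0.895) turned to -0.02 without young replicate 3 and to -0.10 without aged replicate 2.

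The probes of Dst did not move together. Dystonin is made in several forms, the epithelial BP230 and longer ones known from nerve and muscle. Each Dst probe is annotated with a different RefSeq transcript of the gene. The stretch that a probe reads is not given, so the probes were not assigned to forms. Probe A_52_P445253 gave -0.80, -0.51 and -0.65 in the young arrays and -1.36, -0.99 and -0.76 in the aged ones. Of the aged arrays only replicate 3 entered the young range, where the brightest Dst probe had all aged arrays above it. The difference was -0.38 ± 0.18 (SE, limma adjusted p = 0.333), with a 95% interval from -0.82 to 0.06. Probe A_51_P300434 gave -0.84, -0.44 and -0.76 in the young arrays and -0.69, -0.96 and -0.83 in the aged ones, which overlapped, and differed by -0.14 ± 0.15 (limma adjusted p = 0.654). Single arrays moved both values: A_51_P300434 was -0.02 without young replicate 2, -0.08 without aged replicate 2 and -0.22 without young replicate 1, and A_52_P445253 was -0.22 without aged replicate 1. The remaining probe, A_55_P2161132, was at background level on all arrays and has no fold.

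The split between Dst probes was measured within each array, where a scale factor common to the array cancels. This contrast was chosen after the values were seen. A shift that depends on brightness does not cancel. The probes contrasted differ widely in brightness, and bright probes as a class were higher in aged epidermis (median 0.15). The part of brightness in the split was not tested. The brightest probe exceeded A_52_P445253 by 6.63, 6.38 and 6.33 log2 units on the young arrays and by 7.28, 7.26 and 7.02 on the aged ones. All 3 aged arrays were above all 3 young ones, by a change of 0.74, and the two-sided exact permutation test gave p = 0.1, the smallest that 3 arrays against 3 allow (0.3 after Benjamini-Hochberg adjustment over the 3 contrasts computed). The change ran from 0.64 to 0.85 over the alternatives, and was 0.65 under quantile normalization. Against A_51_P300434 the change was 0.50 (exact permutation p = 0.2, adjusted 0.3), and it ran from 0.37 to 0.78. Between the Cd151 probes it was 0.13 (exact permutation p = 0.5, adjusted 0.5), and it ran from -0.07 to 0.29. The groups overlapped in both contrasts. Markers of cells known to make other dystonin forms are given beside this. The summed signal of 6 Schwann cell and nerve genes was 43.1 to 55.3 in the young arrays and 41.8 to 47.6 in the aged ones, in units of the 75th percentile, ranges that overlap. The muscle genes summed to 0.395 to 0.627 and 0.172 to 0.474, with 4 of 6 (Des, Ckm, Myh11 and Tnnt3) at background throughout. Their part in the Dst values was not tested.

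**Figure D3:**
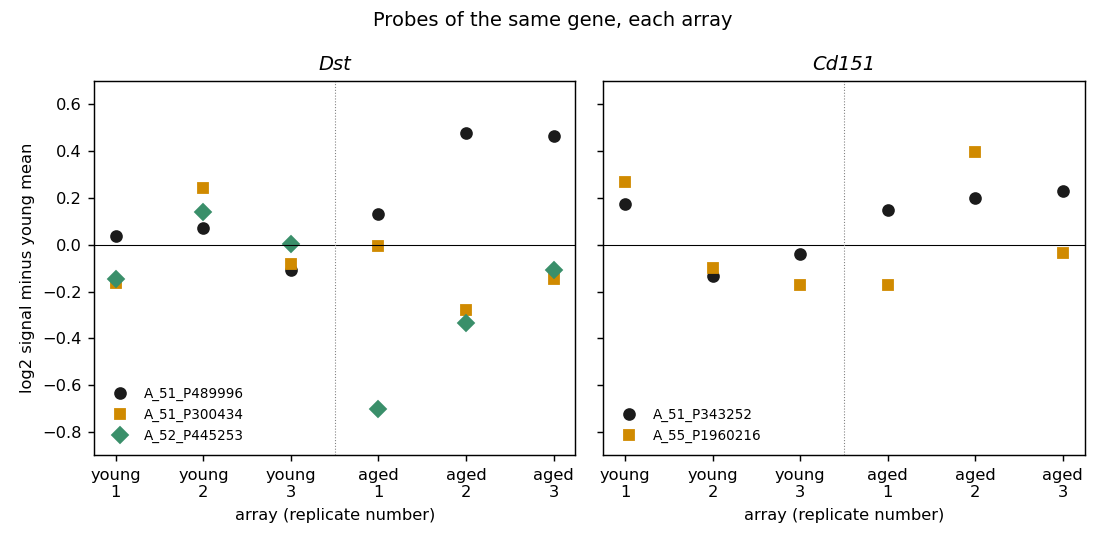
Log2 signal minus the young mean of the same probe (y axis) for the 3 tested probes of Dst and both probes of Cd151 on each array (x axis). The brightest Dst probe (black circles) lies above 0 on all aged arrays, and A_52_P445253 (green diamonds) lies below 0 on all of them.

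The 6 genes shared their lowest aged array. Aged replicate 1, the sample of 22 months, had the lowest aged value in 6 of 6 genes, which held for 42.3% of all tested probes and 50.8% of the bright ones. The median deviation of the 6 genes from their young mean was 0.14, 0.40 and 0.49 on aged replicates 1 to 3, and 0.08, -0.05 and -0.05 on the young ones. Deviations on aged replicate 1 ran from -0.06 (Itga6) to 0.25 (Plec), and on aged replicate 3 from 0.23 (Cd151) to 0.81 (Itgb4). The same median over all tested probes was at most 0.10 on each array. Ddx3y and Eif2s3y, both Y-linked, were well above background on replicate 1 of each group and on no other array. With both of these arrays left out the median of the 6 genes was 0.48, and 0 member probes passed.

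Signals of other cells differed on the same arrays. The 10 hair shaft and inner root sheath markers summed to 1655, 1065 and 1486 on young replicates 1 to 3, and to 860, 163 and 22.4 on aged replicates 1 to 3. Among the aged arrays the sums fell in the order in which the median of the hemidesmosome genes was higher. Among the young arrays this order did not hold, as replicate 1 had both the highest sum and the highest median. The 7 melanocyte markers summed to 15.1 to 19.0 on the young arrays and 4.89 to 13.6 on the aged ones. The 6 basal keratinocyte markers other than the members (Krt5, Krt14, Krt15, Trp63, Itgb1 and Itga3), all well above background on all arrays, summed to 846 to 900 on the young arrays and 920 to 969 on the aged ones, which did not overlap. The sum is of linear signals, so Krt5 and Krt14, the brightest, weigh most in it. Of the markers 5 were higher and 1, Krt15, was lower (-0.30 ± 0.28). The 7 suprabasal markers on the array summed to 2287 to 2361 and 2230 to 2486, which did. Dermal fibroblast markers summed to 5.37 to 8.17 on the young arrays and 2.55 to 20.6 on the aged ones, the highest being aged replicate 1, with 3 of 7 (Pdgfra, Lum and Dpt) not well above background anywhere, and endothelial markers to 4.68 to 5.47 and 4.36 to 4.81, with Cdh5, Tek and Emcn not above it. Langerhans cell markers summed to 8.59 to 12.6 and 1.48 to 10.5, T cell markers to 2.40 to 3.67 and 3.98 to 10.3 (Cd3d and Cd247 at background), and Merkel cell markers to 0.257 to 0.509 and 0.108 to 0.366 (Krt20 and Isl1 at background). The part of these shifts in the hemidesmosome values was not tested. In such bulk RNA fewer cells of a type and less RNA per cell cannot be told apart.

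**Figure D4:**
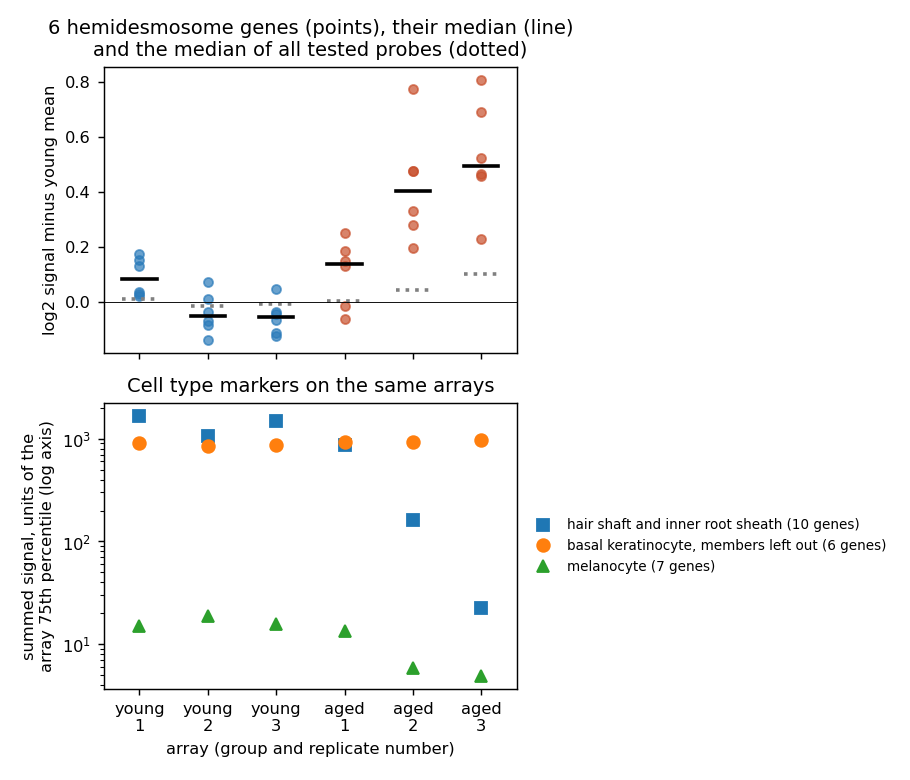
Top, log2 signal minus the young mean for the 6 genes (points) on each array, with their median (black line) and the median of all tested probes (dotted). Bottom, summed signal of 3 marker lists on the same arrays, in units of the 75th percentile on a log axis. The 6 genes are highest on aged replicates 2 and 3, where the hair markers are at 163 and 22.4.

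Genes around the hemidesmosome were followed in 7 lists of 46 genes, of which 44 were tested, each by its brightest probe. None of the 44 passed limma's test. At an unadjusted p under 0.05, 3 were higher and 2 lower, where all tested probes gave 9.67% and 8.11%. In all 28 of 44 were higher, with a median difference of 0.11. Of all tested probes 56.0% were higher, with a median of 0.05. The groups were apart with aged higher in 7 and lower in 3, where all tested probes gave 16.3% and 9.72%. Nothing particular to the 44 genes is read from these counts.

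The matrix partners came closest to the members, with a median of 0.37 over 4 genes. Laminin-332 is the ligand of α6β4. Lama3 gave 1.53, 0.90 and 1.24 in the young arrays and 1.98, 1.56 and 1.89 in the aged ones, a difference of 0.59 ± 0.20 (limma adjusted p = 0.232). Lamb3 differed by 0.27 ± 0.19. Aged replicate 1 was the highest aged array for both genes, where it was the lowest for the members. Col7a1, the collagen of the anchoring fibrils beneath, differed by -0.21 ± 0.16. The filament keratins on the inner side differed by 0.12 ± 0.11 (Krt5), 0.26 ± 0.13 (Krt14) and -0.30 ± 0.28 (Krt15). That of Krt14 was as large as the difference of Col17a1 (0.26). All aged arrays lay above all young ones for Krt5, but not for Krt14 or Krt15.

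The other plakins, which serve desmosomes, the cornified envelope or the cytoskeleton, had a median of 0.06 over 5 genes, which turned to -0.07 under quantile normalization. Dsp, the desmosomal plakin, differed by 0.18 ± 0.12, Eppk1 by 0.15 ± 0.32, Ppl by -0.09 ± 0.15 and Macf1, the closest relative of Dst, by -0.13 ± 0.11. Among 7 other tetraspanins the median was -0.06, and 0.01 with scaling to the median. Cd81 differed by 0.33 ± 0.15. Tspan1 was well above background on 4 arrays, at -3.12, -3.31 and -3.19 in the young ones and -3.70 in aged replicate 1. Aged replicates 2 and 3, at -6.84 and -6.62, lay below the lowest signals well above background on their arrays (-4.78 and -4.45), so these values are no levels and no size is given for the difference. It did not pass limma's test (adjusted p = 0.221), and the 3 alternatives in which it passed rest on these background signals.

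Focal adhesions, the actin-linked counterpart of the hemidesmosome, had a median of 0.16 over 15 genes, 10 of them higher. The median was 0.28 without young replicate 1 and 0.08 without aged replicate 2. Talin (Tln1) gave 3.96, 3.75 and 3.79 in the young arrays and 4.08, 4.19 and 4.34 in the aged ones, a difference of 0.37 ± 0.13 (limma adjusted p = 0.229), and kindlin-1 (Fermt1) differed by 0.33 ± 0.13 (adjusted p = 0.272). Actn1, an actin crosslinker, differed by -0.59 ± 0.25. Among 9 kinases and receptors that act on hemidesmosomes the median was 0.05, and -0.02 under quantile normalization. The Src-family kinase gene Fyn had the smallest p of the 44 genes. It gave -1.06, -1.10 and -0.91 in the young arrays and -1.72, -2.10 and -1.60 in the aged ones, well apart, with a difference of -0.78 ± 0.16 (limma adjusted p = 0.134). Fyn passed with array weights (-0.94, limma adjusted p = 0.0332), a setting in which 1543 of all tested probes passed. Prkca, a kinase that loosens hemidesmosomes by phosphorylating integrin β4, differed by -0.42 ± 0.27. Of the other transmembrane collagens Col23a1 alone was tested, at 0.33 ± 0.38.

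**Figure D5:**
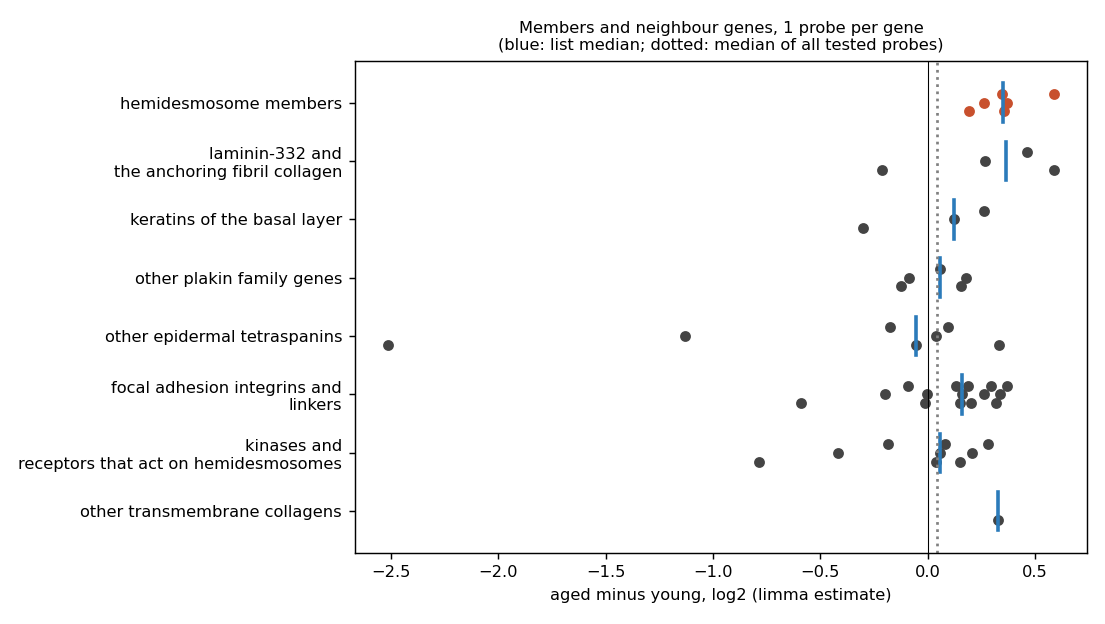
Aged minus young difference (x axis, log2) of the 6 members (orange) and of 44 neighbour genes (dark), 1 point per gene. The median of each list is in blue and that of all tested probes dotted. The leftmost point, Tspan1, is at background on 2 aged arrays. Tspan15 and Pxn were well above background on 5 and 4 arrays, so their points also rest in part on background signals. The medians of the members (0.35) and of the laminin-332 list (0.37) lie furthest right among lists of more than 1 gene.

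The pattern of Col17a1 over the 6 arrays was compared with that of 11361 other genes well above background on all arrays and varying at least 0.5 times as widely. Among the most alike were Mfsd14a, Nucks1, Api5 and Slc25a3, with Pearson correlations from 0.992 to 0.996 over 6 arrays that share the 2 groups. Their differences between the ages were small, from 0.16 to 0.19. Of the 11361 genes 539 correlated above 0.9, so a value that high is not particular to the genes named. Of the members, Itga6 (0.937) ranked 233 and Itgb4 (0.911) ranked 436 of 11366 genes, Dst 816, Plec 1657 and Cd151 1967. By rank correlation 69 genes tied at the top, and Nucks1 and Slc25a3 were among them.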

How the data were processed

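Small amounts of total RNA were amplified as whole-transcriptome cDNA and labelled, per the labels' protocols. Each array was read with Feature Extraction 11.5.1.1 in 1 colour (Cy3), on 1 slide and 1 scan, per the file headers. All aged arrays and young replicate 3 lay in slide row 2, and young replicates 1 and 2 in row 1. Age and slide row thus largely coincide and cannot be fully told apart. The deposited processed signal is an intensity, background-subtracted and detrended within the array by the authors' scanner software. The authors' deposited table holds log2 values, and set against the scanner files it matched log2 signal minus the 75th percentile after centring by probe (r of at least 0.9999 on each array). Here log2 signals were scaled to the 75th percentile over non-control spots, which was 230.2 to 300.3 units, outlier spots (116 to 170 an array) were dropped and repeat spots averaged. No spot was saturated and 50.02% to 54.38% of probes were well above background, and the number of arrays limits the precision. RefSeq accessions named 28331 probes. The files use build mm9, so coordinates are given for RefSeq's own promoter table alone.

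Tests used limma 3.58.1 in R 4.3.3 (lmFit, eBayes, two-sided) across all tested probes, checked on simulated data, with SciPy 1.17.1 for exact permutation. Every member probe was kept. Members and lists were chosen with earlier results of these data known. Named genes were all member probes, up to 4 genes per neighbour list by unadjusted p, and the 5 genes most like Col17a1; some of these are not reported here. Of the same-numbered arrays the deviations from the group means correlated at 0.410, 0.258 and 0.107 over probes, so by a limit of 0.1 the numbers were read as pairs, although the labels name nothing they share, and young replicate 2 correlated more with aged replicate 3 (0.279). Normexp used median signals, the columns at hand. Alternatives were another background correction, scaling, filter, variance prior, array weights, 1 probe per gene, blocks, the authors' table and leaving arrays out.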

Additional observations from a re-analysis of the deposited data

How the results depend on the processing

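Over 18 alternatives the 6 brightest member probes kept their direction, and the median of the 6 genes ran from 0.25 without aged replicate 3 to 0.48 without both arrays numbered 1. Itgb4 was 0.75 with array weights, where 1 member probe passed, and 0.48 to 0.79 when 1 array was left out, with 0 to 1 member probes past the threshold. The dimmer Cd151 probe ran from -0.10 to 0.20 when 1 array was left out, and up to 0.32 over all alternatives that tested it. The count of all probes past the threshold, 17, was 8 with quantile normalization, 36 with scaling to the median, 1 with no filter on dim probes, 6 for probes above background on all 6 arrays, 0 with the slide row as a block, 1543 with array weights, 342 without both arrays numbered 1 and 0 to 1424 when 1 array was left out (1424 without aged replicate 1). With the replicate block, reading the numbers as pairs, it was 0 (5748 at an unadjusted p under 0.05), and no member call changed. Neighbour genes past the threshold numbered 2 with array weights (Tspan1 and Fyn), 1 without both arrays numbered 1 and 0 to 1 when 1 array was left out. With 1 array left out the list medians of plakins ran from -0.10 (without aged replicate 3) to 0.21 (without aged replicate 1), of kinases from -0.06 to 0.21 (the same arrays) and of tetraspanins from -0.11 (without young replicate 1) to 0.06 (without aged replicate 2). By Spearman correlation 2 of the 5 genes most like Col17a1 remained. The cause of these changes was not tested.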
